A study of Mus musculus with 76 samples.

Results

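The comparison set the pulmonary vessels of Noxo1 knockout mice against those of wild-type mice, all of which had been exposed to cigarette smoke for 8 months. Its members were chosen by their sample titles and not by any measured value: 4 knockout vessel arrays and 4 wild-type vessel arrays, 8 of the 76 arrays of the series. In the whole series, septa (the alveolar walls) and vessels were microdissected from the lungs of 40 mice, RNA was amplified, and each sample was hybridised alone to a single-colour array. The 16 groups cross genotype, smoke or control air, 3 or 8 months, and tissue.

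Both groups came from the line C57BL/6-Noxo1(tm1881_17.2Arte), which the labels give for knockout and wild-type mice alike. From week 12 the smoke was generated from Kentucky 3R4F research cigarettes and given for 6 h per day on 5 days per week at 140 mg/m3 of particles. The labels call these groups smoke-exposed for 8 months; they do not give the age at death or the sex, and whether the wild-type mice were littermates is not stated. Control mice are labelled contr, and the smoke protocol is attached to their labels as well, so their handling is known only from that word. Every array of the 8 came from a different mouse. The vessel type (artery or vein) is not given, and neither are scan dates or array slides.

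NOXO1 is the organiser subunit of the NOX1 NADPH oxidase, an enzyme that passes electrons from NADPH to oxygen and so makes superoxide. It is a relative of p47phox, the organiser of the phagocyte oxidase NOX2, but lacks the autoinhibitory control of that protein, so that NOX1 with NOXO1 can be active without a stimulus. NOX1 also needs the activator NOXA1, the membrane partner p22phox (Cyba) and the GTPase RAC1. In the lung, smoke carries oxidants and draws inflammatory cells, and oxidases of the vessel wall have been studied in the remodelling of pulmonary vessels.

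The values are log2 signals, so a difference of 1 is a 2-fold difference in signal. Each gene is represented by its brightest probe, and differences are given as knockout minus wild-type ± the standard error of limma. As a guide to background, the 1322 odorant and vomeronasal receptor genes, which lung is not known to use widely, had a median group mean of 2.06 and a 95th percentile of 3.269. Of 20710 genes tested, 13727 (66.3%) averaged above that 95th percentile in at least 1 of the 2 groups. Below it a level is called dim here, and a difference between dim groups has little meaning.

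The arrays carried the markers of the labelled tissue. Acta2, smooth muscle actin, read 13.92 to 15.03 on the 8 vessel arrays and 6.08 to 9.2 on the 10 septa arrays of smoked mice at 8 months. Myh11, the smooth muscle myosin, read 10.53 to 11.84 in vessels and 3.18 to 7.05 in septa. The vessel samples were not free of other cells. Sftpc, a surfactant protein of type 2 pneumocytes, reached 14.04 to 14.88 in the vessels, against 14.92 to 15.46 in the septa. Scgb1a1, a secretory protein of airway club cells, read 15.61 to 15.79 in the vessels. In such bulk samples, fewer cells of a type and less RNA per cell cannot be told apart.

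The 8 arrays did not separate by genotype. Pairs of arrays of the same genotype correlated at 0.844 to 0.919 over all genes (median 0.881, 12 pairs), and pairs of different genotype at 0.839 to 0.927 (median 0.881, 16 pairs). By Xist and Y-linked genes, 3 of the 4 arrays in each group had a female pattern, the exceptions being knockout replicate 4 and wild-type replicate 3, and the septa of the same mice had the same pattern. Septa and vessels of the same mice did not match in some other groups. In knockout controls at 8 months, 2 of 5 vessel arrays and 0 of 5 septa arrays had a female pattern. In wild-type controls at 8 months it was 0 of 5 and 1 of 5, and likewise in wild-type smoked mice at 3 months. The reason was not tested, so the mouse or group labels of some of those arrays are uncertain.

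Noxo1 itself did not separate the groups. It read 3.97, 3.37, 2.31 and 1.60 on knockout replicates 1 to 4, and 3.69, 3.72, 6.19 and 2.47 on wild-type replicates 1 to 4. The groups overlapped: knockout replicate 1 lay above 3 of the 4 wild-type arrays, and the wild-type mean of 4.02 ± 1.56 (SD, n = 4) rested on replicate 3. The knockout mean of 2.81 ± 1.06 (SD, n = 4) was in the dim range. The difference was -1.21 ± 1.00, with a two-sided exact permutation p of 0.257 over the 70 arrangements of the arrays, of which the smallest possible is 0.0286. Without wild-type replicate 3 it was -0.48, and among the 6 arrays with a female pattern, a choice made after seeing the data, it was -0.08. Elsewhere the knockout-minus-wild-type difference of Noxo1 was 0.14 ± 0.90 in control vessels at 8 months, -2.18 ± 0.90 in smoked vessels at 3 months and -1.03 ± 0.63 in smoked septa at 8 months. The labels do not say which part of the gene was deleted, so the probe may lie outside it and this signal is no check of the deletion.

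No gene passed the test of knockout against wild-type in smoked vessels at 8 months. By limma with Benjamini-Hochberg adjustment, 0 of 20710 genes (0.0%) had an adjusted p under 0.05, and the lowest adjusted p was 1. At an unadjusted p under 0.05 there were 654 genes (3.16%), 336 higher in the knockout (1.62%) and 318 lower (1.54%), where 1036 would be 5 percent of the genes. The groups did not overlap for 574 genes (2.77%), 291 of them higher in the knockout (1.41%) and 283 lower (1.37%). The median difference over all genes was -0.01, the median size of a difference 0.4 and the median standard error 0.7. Differences over 2 log2 units occurred for 389 genes, none of which passed. The 31125 features without a gene name gave 0 calls as well, 1176 of them (3.78%) at an unadjusted p under 0.05 and a lowest adjusted p of 0.491.

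The 10 genes of lowest p in each direction are described next, by their values. None of them passed adjustment, each has an adjusted p of 1 by limma, and they were picked as the extremes of this same comparison, so that their order is no evidence. Groups did not overlap for 9 of the 10 higher genes and 7 of the 10 lower ones. Only 5 of the 20 were above the dim range in both groups: Jchain, Rnpc3, Muc20, Trp73 and Nsfl1c.

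**Figure D1:**
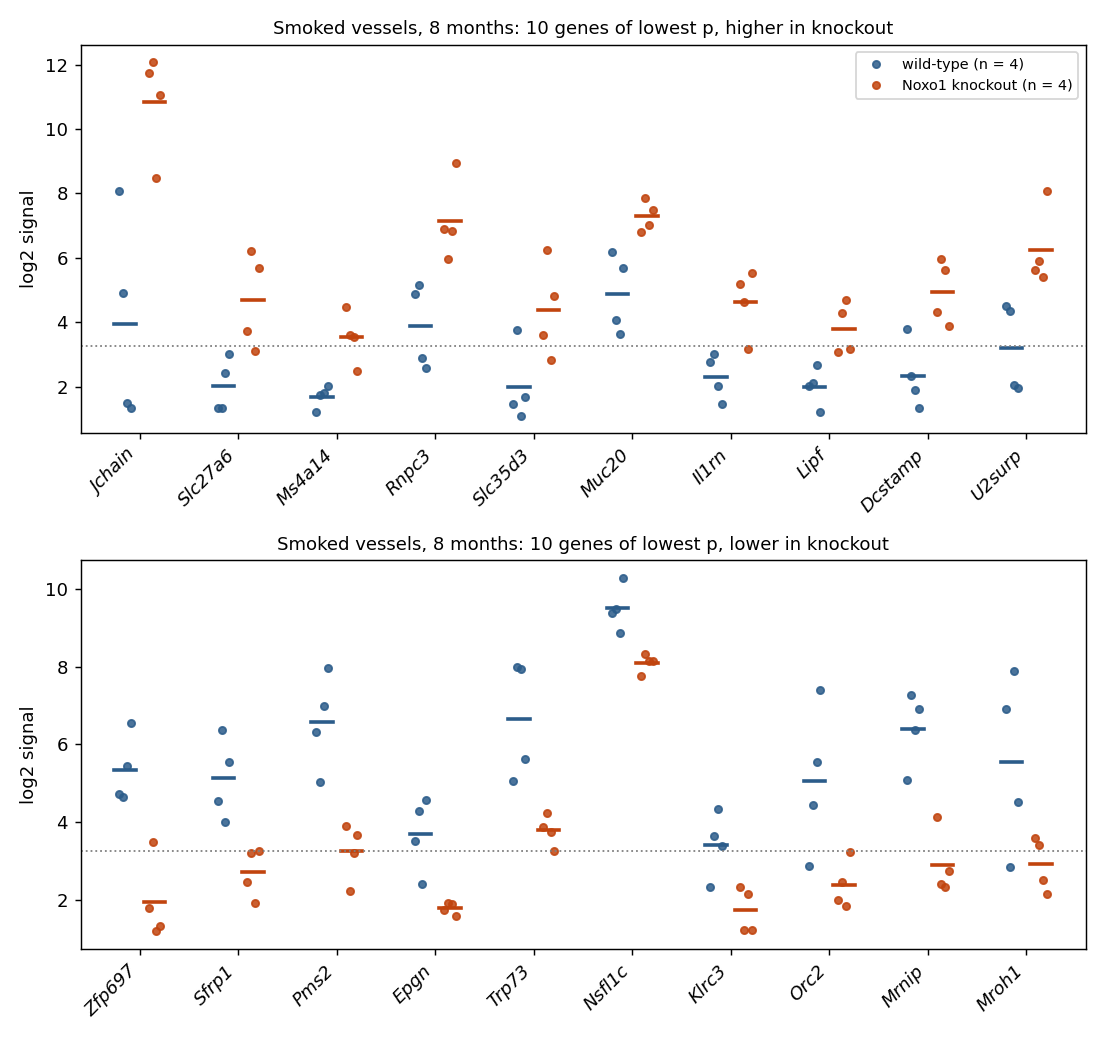
Log2 signal of the 10 genes of lowest p that were higher in the knockout (top) and lower in the knockout (bottom), 1 point per array, 4 knockout and 4 wild-type arrays, with horizontal bars for group means and a dotted line at the receptor level of 3.269. Jchain has the widest gap, with knockout arrays at 8.49 to 12.07 and wild-type arrays at 1.33 to 8.08, while many other genes have 1 group at or under the dotted line.

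Jchain, the joining chain that links polymeric IgA and IgM in plasma cells, had the largest difference of the 20. Knockout replicates 1 to 4 read 11.74, 12.07, 8.49 and 11.07, and wild-type replicates 1 to 4 read 8.08, 4.92, 1.48 and 1.33. The groups were separated by a narrow gap, between knockout replicate 3 and wild-type replicate 1, and the wild-type arrays spread from background to a clear signal. The difference was 6.89 ± 1.92 with an unadjusted p of 0.001. Leaving out each array in turn moved it between 6.02 and 8.27.

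Rnpc3, a protein of the minor spliceosome, read 6.88, 5.95, 6.83 and 8.94 in the knockout and 4.87, 5.16, 2.90 and 2.59 in the wild type. Its difference was 3.27 ± 0.96 for the brightest of 3 features, and the other features differed by 0.29 and -0.83. U2surp, a protein associated with the U2 small nuclear ribonucleoprotein, read 5.61, 5.91, 5.39 and 8.09 in the knockout and 4.50, 4.34, 2.05 and 1.96 in the wild type. The groups did not overlap for either gene, and the difference of U2surp was 3.04 ± 0.95, with 2.05 for its other feature.

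Muc20, a membrane-bound mucin, read 6.80, 7.87, 7.01 and 7.49 in the knockout against 6.18, 4.08, 3.62 and 5.67 in the wild type. All knockout arrays lay above all wild-type arrays, by 2.40 ± 0.73 on average. Il1rn, the antagonist of the interleukin-1 receptor, read 5.20, 4.62, 3.18 and 5.53 in the knockout, and 2.76, 3.00, 2.03 and 1.45 in the wild type, where every array was dim. Dcstamp, a membrane protein needed for the fusion of osteoclasts and macrophages, read 4.32, 5.96, 5.63 and 3.89 against 3.80, 2.32, 1.89 and 1.35. The differences were 2.32 ± 0.71 for Il1rn and 2.61 ± 0.81 for Dcstamp, and the groups of both were apart.

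The remaining higher genes were dim in the wild type. Slc27a6, a fatty acid transport protein, averaged 4.68 in the knockout and 2.03 in the wild type, and Slc35d3, of the nucleotide sugar transporter family, 4.37 and 2.00. Ms4a14, of the membrane-spanning 4-domain family, averaged 3.53 and 1.69, and Lipf, the gastric lipase, 3.81 and 2.00. Of these 4 genes, Slc35d3 was the one whose groups overlapped, because wild-type replicate 2 read 3.76 and knockout replicate 3 read 2.82.

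Zfp697, a zinc finger protein, had the lowest p of all genes, 8.22e-05. It read 1.80, 3.50, 1.20 and 1.35 in the knockout and 4.72, 4.64, 5.44 and 6.55 in the wild type. The groups did not overlap, and the knockout arrays were dim except replicate 2. The difference was -3.37 ± 0.76 and stayed between -3.89 and -2.97 when each array was left out.

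Pms2, a subunit of the mismatch repair complex, read 3.90, 2.24, 3.21 and 3.67 in the knockout and 6.31, 5.03, 7.00 and 7.96 in the wild type, a difference of -3.32 ± 0.89, with -0.88 for its other feature. Mrnip, which interacts with the MRN complex of double-strand break repair, read 4.13, 2.41, 2.35 and 2.76 against 5.09, 7.27, 6.37 and 6.91. The groups of both genes were apart, and Mrnip differed by -3.49 ± 1.13. Orc2, a subunit of the origin recognition complex of DNA replication, read 2.00, 2.48, 1.85 and 3.23 against 2.89, 4.45, 5.56 and 7.40, so that knockout replicate 4 lay above wild-type replicate 1.

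Trp73, a transcription factor of the p53 family, read 3.89, 4.25, 3.76 and 3.27 in the knockout and 5.05, 7.98, 7.93 and 5.64 in the wild type. Those groups were apart by -2.86 ± 0.79, but of its 2 other features 1 differed by -1.58 and the other by 0.78. Nsfl1c, a cofactor of the p97 ATPase that extracts proteins from membranes and complexes, was the brightest of the lower genes. It read 7.76, 8.33, 8.15 and 8.15 in the knockout and 9.37, 9.47, 8.87 and 10.27 in the wild type, a difference of -1.39 ± 0.40 with the groups apart.

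Sfrp1, a secreted antagonist of Wnt ligands made by fibroblasts, read 2.46, 3.22, 1.93 and 3.26 in the knockout and 4.56, 6.38, 4.01 and 5.56 in the wild type. The knockout arrays were all dim and the wild-type arrays all above the receptor level, by -2.41 ± 0.64 on average. Of the 18 adventitial and alveolar fibroblast genes measured, Sfrp1 among them, 10 lay above 0 (all genes 49.4%), with a median of 0.01. An unadjusted p under 0.05 by limma was found for 2 of the 18, Sfrp1 and Ccl11, both lower (all genes 1.54%). Epgn, a ligand of the epidermal growth factor receptor, averaged 1.80 ± 0.16 in the knockout and 3.70 ± 0.97 in the wild type (SD, n = 4), with the groups apart. Klrc3, a lectin-like receptor of natural killer cells, averaged 1.75 and 3.43, and Mroh1, a protein of HEAT repeats, 2.93 and 5.55. The groups overlapped for both of these.

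The same 20 genes were then read in 3 other sets of arrays, none of which holds any of the 8 arrays: control vessels at 8 months (10 arrays), smoked vessels at 3 months (10 arrays) and smoked septa at 8 months (10 arrays, 8 of them from the mice described here). The sex pattern was not balanced between genotypes in the vessel sets. It was female on 2 of 5 knockout and 0 of 5 wild-type arrays of control vessels. At 3 months it was female on 3 of 5 and 0 of 5, and in septa on 4 of 5 and 3 of 5. Genotype and sex cannot be fully told apart in the vessel sets. In control vessels, 15 of the 20 differed in the same direction, the 10 higher genes by a median of 0.18 and the 10 lower ones by a median of -0.28. At 3 months 9 of 20 had the same direction, with medians of 0.03 and 0.09. In septa it was 9 of 20 as well, with medians of -0.15 and -0.24. In each of the 3 sets, 1 of the 20 had an unadjusted p under 0.05 in the same direction: Jchain in control vessels, U2surp in vessels at 3 months and Trp73 in septa. Over all genes, 834 (4.03%), 1477 (7.13%) and 907 (4.38%) had an unadjusted p under 0.05 in these 3 comparisons, and by limma 0 passed adjustment in each, with lowest adjusted p of 0.754, 0.25 and 1.

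**Figure D2:**
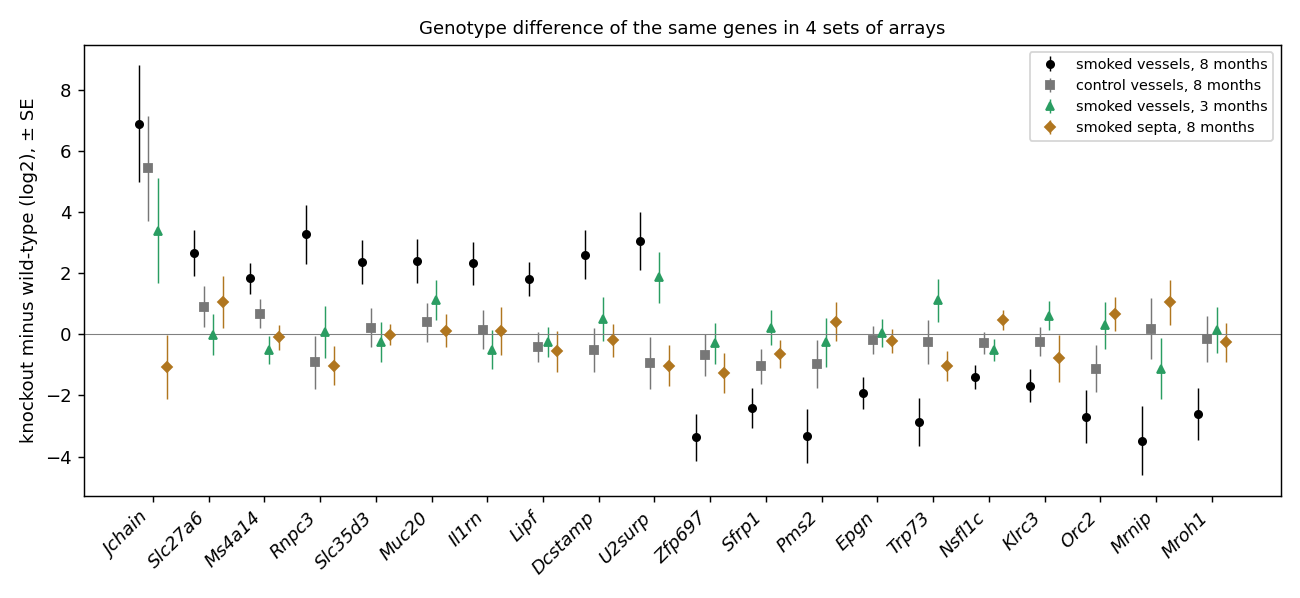
Knockout-minus-wild-type difference (log2, points) with its standard error (bars) for the 20 genes, in smoked vessels at 8 months and in the 3 other sets of arrays named in the legend. Away from smoked vessels at 8 months most genes lie near 0, and Jchain keeps a positive difference in the vessel sets, 5.43 in control vessels at 8 months and 3.39 in smoked vessels at 3 months, but reads -1.07 in septa.

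Jchain also had the largest of the 20 differences in both other sets of vessels. In control vessels at 8 months the knockout arrays read 7.42 to 12.86 (mean 10.70) and the wild-type arrays 1.12 to 11.09 (mean 5.27), a difference of 5.43 ± 1.72 with an unadjusted p of 0.00324. In smoked vessels at 3 months the knockout read 10.91 to 12.17 and the wild type 4.44 to 11.13, a difference of 3.39 ± 1.72. The groups overlapped in both of these sets. In septa of smoked mice at 8 months the knockout averaged 4.47 and the wild type 5.54. Wild-type vessels spread from low to high signal in each set, while the knockout vessels read 7.42 or more in all of them. This pattern was seen after the gene had been picked, and the sets share 1 estimate of the spread.

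Whether the genotype difference of smoked vessels at 8 months differs from that in the other sets was tested directly. By limma, 0 genes (0.0%) passed adjustment in the test against control vessels, with 650 genes (3.14%) at an unadjusted p under 0.05 and a lowest adjusted p of 1. In the test against 3 months it was 0 genes (0.0%), with 857 (4.14%) unadjusted, and in the test against septa of the same mice 0 genes (0.0%), with 770 (3.72%) unadjusted. The lowest adjusted p was 1 in both. In 1 fit over 76 arrays with mouse as a block, a single gene, Tbc1d2, passed in the test against 3 months. The tests against control vessels and against 3 months rest on sets in which the sex pattern was not balanced between genotypes. With sex as a covariate both gave 0 calls as well.

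The 3 genes of lowest p in each of these tests are given by their values. They were picked by the size of that same difference relative to its error, so that the opposed signs follow from the choice. Against control vessels they were Palm, Car14 and Sox11. Palm, a protein that anchors to the plasma membrane through palmitoyl groups, read 9.37, 9.56, 9.44 and 10.09 in smoked knockout vessels and 8.75, 8.85, 8.51 and 8.15 in smoked wild-type vessels. Those groups were apart, and the difference of 1.05 ± 0.40 compared with -1.02 ± 0.36 in control vessels. Car14, a membrane carbonic anhydrase, differed by -2.13 ± 0.84 with smoke and by 2.08 ± 0.75 without. Sox11, a developmental transcription factor, differed by 2.76 ± 0.94 with smoke and by -1.66 ± 0.84 without, by the brightest of 2 features, while its other feature differed by -0.44 with smoke.

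Against 3 months the genes were Tbc1d2, Stkld1 and Gle1. Tbc1d2, a GTPase-activating protein for RAB7, read 5.22, 4.70, 4.64 and 5.20 in the knockout and 2.43, 3.14, 1.31 and 2.12 in the wild type at 8 months, with the groups apart. Its difference was 2.69 ± 1.02 at 8 months and -3.03 ± 0.91 at 3 months, a change of 5.72 ± 1.37. Gle1, which acts in the export of mRNA through the nuclear pore, differed by -2.01 ± 0.98 at 8 months and by 3.19 ± 0.88 at 3 months, and its other feature by 0.44 at 8 months. Stkld1, a kinase-like protein, differed by 1.71 ± 0.53 and -1.20 ± 0.48. Against septa they were U2surp, Jchain and Bend7, with a difference in vessels minus that in septa of 4.47 ± 1.01, 9.23 ± 2.09 and 3.23 ± 0.76 within mice.

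The subunits of the oxidase that NOXO1 serves were next. Nox1, the catalytic subunit, read 1.66, 1.68, 1.90 and 1.17 in the knockout and 1.74, 2.28, 4.13 and 1.62 in the wild type. The signal was dim on every array except wild-type replicate 3, the array on which Noxo1 was also highest. Noxa1, the activator, averaged 3.51 ± 0.77 and 3.97 ± 1.42 (SD, n = 4), a difference of -0.46 ± 0.75 that was 0.05 without wild-type replicate 4. Cyba, which stabilises several oxidases at the membrane, averaged 11.47 and 11.44, and Rac1 averaged 13.96 and 14.12.

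Nox4, a constitutively active oxidase of vascular cells that yields hydrogen peroxide, read 8.08, 7.99, 6.43 and 8.16 in the knockout and 7.79, 6.94, 5.59 and 7.34 in the wild type. The groups overlapped, with replicate 3 lowest in each, and the difference was 0.75 ± 0.76. Nox3, the oxidase of the inner ear, Duox1, Duox2 and Duoxa2, a maturation factor of the dual oxidases, averaged in the dim range in both groups. Duoxa1, the other maturation factor, averaged 3.82 and 4.26. Of the 11 genes of the NOX1 complex and the non-phagocyte oxidases, none had an unadjusted p under 0.05 (all genes 3.16%), 4 lay above 0 (all genes 49.4%), and the median difference was -0.39 (all genes -0.01). Leaving out each array in turn gave medians of -0.31 to -0.12, the latter without knockout replicate 1. For the 6 of the 11 genes above the dim range in at least 1 group, the median difference was -0.3.

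**Figure D3:**
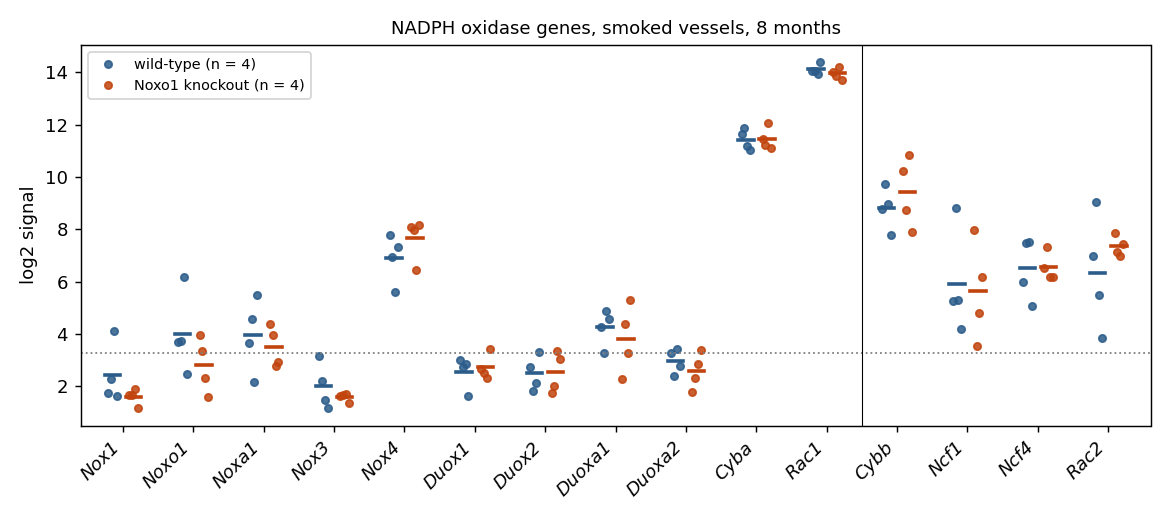
Log2 signal of 15 NADPH oxidase genes, 1 point per array, 4 knockout and 4 wild-type arrays, with bars for group means and a dotted line at the receptor level of 3.269. The vertical line parts the NOX1 complex and non-phagocyte oxidases from the phagocyte oxidase genes Cybb, Ncf1, Ncf4 and Rac2. The groups overlap for every gene, and Nox1 and Nox3 lie at or under the dotted line on all arrays but wild-type replicate 3 for Nox1.

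Of the phagocyte oxidase, 4 genes are described. Cybb, its catalytic subunit NOX2, read 10.22, 8.74, 10.83 and 7.91 in the knockout and 8.79, 9.75, 8.96 and 7.80 in the wild type, with overlapping groups and a difference of 0.60 ± 1.26. Ncf1, the organiser p47phox that is related to NOXO1, averaged 5.63 ± 1.89 and 5.90 ± 2.02 (SD, n = 4), a difference that turned from -0.27 to 0.71 without wild-type replicate 2. Ncf4 averaged 6.55 and 6.52, and Rac2, the GTPase of blood cells, 7.35 and 6.35.

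Genes of the response to oxidants and smoke gave no call. Among 19 enzymes that remove superoxide and peroxide, none had an unadjusted p under 0.05 and the median difference was 0.06. Gpx4, which reduces lipid peroxides in membranes, read 10.21, 9.93, 11.02 and 9.84 in the knockout and 10.90, 10.77, 10.87 and 11.34 in the wild type. Knockout replicate 3 lay within the wild-type arrays and the other 3 below them, for a difference of -0.73 ± 0.39. Txn2, the mitochondrial thioredoxin, averaged 7.65 and 8.27.

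Of 16 targets of NRF2, the transcription factor of the antioxidant response, 12 lay above 0, with a median of 0.27 and none at an unadjusted p under 0.05. Hmox1, heme oxygenase, read 9.88, 5.65, 8.53 and 8.95 in the knockout and 7.00, 6.48, 8.78 and 5.29 in the wild type. Gclc, the limiting enzyme of glutathione synthesis, read 9.38, 9.97, 11.30 and 10.43 against 8.82, 9.59, 10.82 and 8.06. The groups of both overlapped, with differences of 1.36 ± 0.93 and 0.95 ± 0.68. Of the 16 targets 4 lay below 0, and 6 did so without wild-type replicate 4, the lowest wild-type array for both genes.

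Cyp1a1, the cytochrome that the aryl hydrocarbon receptor induces in response to smoke constituents, read 1.31, 3.84, 3.18 and 1.49 in the knockout and 4.22, 4.26, 7.41 and 2.09 in the wild type. The groups overlapped, and wild-type replicate 3 stood highest. The difference was -2.04 ± 0.91 with an unadjusted p of 0.0322, and -1.06 at the smallest when each array was left out. Of 9 measured genes of that receptor's list, Cyp1a1 was the 1 with an unadjusted p under 0.05 by limma, lower (all genes 1.54%). In that list 7 genes lay above 0 (all genes 49.4%), with a median of 0.16.

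The contractile genes of smooth muscle all averaged lower in the knockout, by less than the spread of the arrays. Of 16 listed genes 16 had a difference below 0, the median was -0.43, none had an unadjusted p under 0.05, and the groups overlapped for every one. Des, the intermediate filament desmin, read 11.90, 11.84, 10.96 and 10.91 in the knockout and 12.22, 12.30, 11.67 and 11.95 in the wild type. Itga8, an integrin chain of smooth muscle, averaged 10.29 and 10.90, and Smtn, smoothelin, 11.40 and 11.82. The 3 differences were -0.63 ± 0.41, -0.61 ± 0.43 and -0.42 ± 0.32.

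The mean level of the 16 genes showed which arrays carried this. It was 11.00, 10.03, 9.64 and 10.88 on knockout replicates 1 to 4 and 11.11, 10.75, 10.41 and 11.22 on wild-type replicates 1 to 4. Knockout replicates 2 and 3 were the low arrays, and replicates 1 and 4 lay within the wild-type range. Without knockout replicate 3 the median difference was -0.17 and the number of genes below 0 was 12. The median was -0.03 in control vessels at 8 months and -0.09 in smoked vessels at 3 months. On the same arrays the type 2 pneumocyte list was highest on knockout replicate 3, at 10.18, and the list of heart muscle genes highest on knockout replicate 2, at 9.39. The part of these other cell types in the smooth muscle values was not tested.

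**Figure D4:**
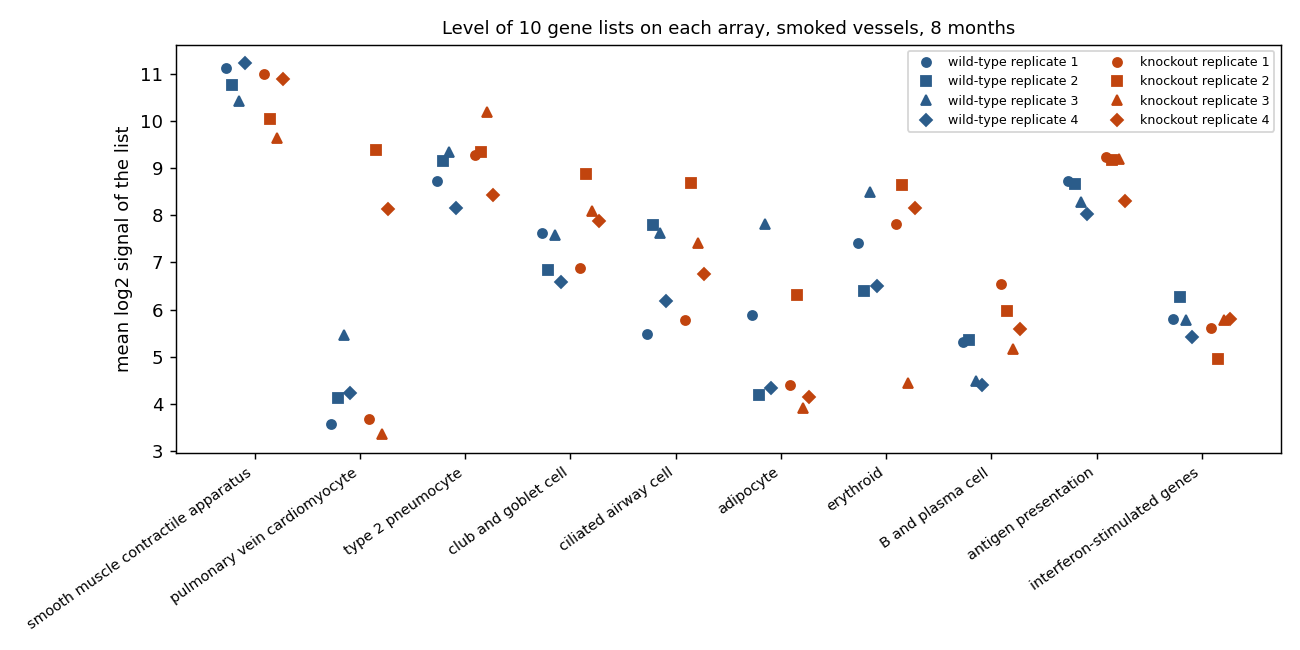
Mean log2 signal of the measured genes of 10 lists on each of the 8 arrays, with a separate symbol for each replicate and colour for genotype. Smooth muscle genes are lowest on knockout replicates 2 and 3 (10.03 and 9.64), heart muscle genes are high on knockout replicates 2 and 4 (9.39 and 8.13), and the erythroid list is lowest on knockout replicate 3 (4.44).

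Genes of cardiac muscle, which sheathes the pulmonary veins of mice, differed between arrays more than between genotypes. The mean level of 15 such genes was 3.68, 9.39, 3.36 and 8.13 on knockout replicates 1 to 4 and 3.58, 4.12, 5.46 and 4.23 on wild-type replicates 1 to 4. Replicates 2 and 4 of the knockout were high and the other 6 arrays low. Thus 13 of 15 genes lay above 0 with a median of 1.66, none with an unadjusted p under 0.05. Without knockout replicate 2 the median was 0.58, and without replicate 1 it was 2.72. Myl7, the atrial myosin light chain, read 1.21, 10.41, 1.52 and 7.97 in the knockout and 1.03 to 2.74 in the wild type. Ttn, the giant spring protein of the sarcomere, read 3.45, 11.54, 5.87 and 9.81 against 1.31 to 4.20. Mybpc3, the cardiac myosin-binding protein, was likewise at 9.97 and 10.29 on those 2 arrays and at 3.68 or less on the other 6.

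Fat genes showed a similar dependence on single arrays. The mean level of 12 adipocyte genes was 4.41, 6.30, 3.91 and 4.15 in the knockout and 5.89, 4.18, 7.82 and 4.34 in the wild type, highest on wild-type replicate 3. Adipoq, adiponectin, read 8.94 on that array and 1.50 to 3.94 on the other 7. Of the 12 genes, 10 lay below 0 and 16.7% above it (all genes 49.4%), with a median of -0.87, which was -0.15 without wild-type replicate 3. The groups were apart for 1 of the 12, which was higher in the knockout (all genes 1.41%). Erythroid genes were lowest on knockout replicate 3. Hba-a1, alpha globin, read 13.72, 13.97, 9.48 and 13.68 in the knockout and 12.65, 12.05, 14.02 and 10.13 in the wild type.

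Lists of the matrix gave no call. The 18 elastic fibre genes had a median of -0.31, with 13 below 0 and 27.8% above it (all genes 49.4%), and the median was -0.08 without wild-type replicate 1. Fbln5, fibulin-5, which elastic fibre assembly needs, averaged 10.09 and 10.74, and Lox, lysyl oxidase, which cross-links elastin and collagen, read 7.76, 7.79, 6.78 and 5.43 in the knockout and 9.49, 8.93, 8.31 and 6.61 in the wild type. The groups of Lox overlapped through wild-type replicate 4, and its difference was -1.40 ± 0.81. The 14 collagen chains had a median of 0.02, with Col8a1, a chain of short-chain collagen VIII, at 5.80 and 4.24. Among 18 matrix proteases and inhibitors the median was 0.03. Ctss, the elastin-degrading cathepsin S, read 10.41, 10.51, 10.68 and 10.08 in the knockout and 9.80, 9.53, 9.86 and 9.91 in the wild type. Those groups were apart, by 0.65 ± 0.50, for this 1 gene of the 18 (all genes 1.41% apart and higher). Timp2, an inhibitor of metalloproteinases, averaged 10.35 and 10.84.

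Signalling genes of the vessel wall gave no call. The 31 genes of BMP and TGF-beta signalling, the pathway whose receptor is mutated in heritable pulmonary hypertension, had a median of -0.17 and none at an unadjusted p under 0.05. Acvr2a, a type II receptor, averaged 8.91 and 8.10, Tgfb3, a ligand, 9.09 and 9.69, and Id1, a target of BMP signals, 10.06 and 10.57. The median was 0.19 for 17 genes of nitric oxide and cGMP, and -0.07 for 20 genes of endothelin, prostanoids and angiotensin. Without the genes dim in both groups these medians were 0.02 and -0.18. Ddah1, which breaks down an inhibitor of nitric oxide synthase, read 4.18, 3.71, 4.86 and 4.71 in the knockout and 4.87, 8.49, 5.54 and 4.54 in the wild type. Its lower mean in the knockout rested in large part on wild-type replicate 2. Asl, which makes the arginine that nitric oxide synthase uses, averaged 6.05 ± 0.66 and 4.54 ± 2.87 (SD, n = 4).

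Receptors and channels that set vessel tone varied in the same way. Htr2a, the serotonin 2A receptor, read 3.10, 3.38, 4.77 and 1.98 in the knockout and 5.42, 5.32, 6.03 and 2.78 in the wild type. Wild-type replicate 4 lay within the knockout arrays, and the difference was -1.58 ± 1.01. Tbxas1, thromboxane synthase, averaged 5.53 and 3.93. Of 17 potassium and calcium channels of vascular muscle the median was -0.23, and -0.49 without those dim in both groups. Kcnj8, the pore of an ATP-sensitive potassium channel that pericytes carry, averaged 1.75, a dim level, and 3.51. Kcna5, a voltage-gated channel of pulmonary arteries, read 7.63, 7.37, 8.09 and 8.41 in the knockout and 8.24, 7.51, 9.59 and 10.03 in the wild type, a difference of -0.97 ± 0.76 by its brightest feature and of 0.22 by the mean of its features.

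Interferon-stimulated genes lay below 0 more often than not. Of 23 measured, 16 were below 0 with a median of -0.42, none had an unadjusted p under 0.05, and the groups were apart for 2, Irf9 and Ddx58, both lower (all genes 1.37%). Irf9, the DNA-binding subunit of the interferon-activated factor ISGF3, read 8.63, 8.43, 8.45 and 7.77 in the knockout and 8.77, 9.17, 9.45 and 8.95 in the wild type. Ddx58, the RNA sensor RIG-I, read 7.10, 7.47, 7.11 and 7.89 against 8.33, 8.81, 8.95 and 7.92. Their differences were -0.76 ± 0.50 and -1.11 ± 0.71. Oas2, which makes the second messenger of RNase L, read 6.68, 5.35, 4.74 and 4.15 against 4.59, 7.24, 7.42 and 7.63.

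The level of the whole interferon list overlapped between the groups. It was 5.61, 4.95, 5.77 and 5.79 on knockout replicates 1 to 4 and 5.81, 6.26, 5.77 and 5.42 on wild-type replicates 1 to 4. Knockout replicate 2 was the lowest array and wild-type replicate 2 the highest. Without the latter the median difference was -0.11.

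Promoters of Ddx58 and Irf9 are shown because these are the members of the list whose groups did not overlap. The windows run from 250 bases before to 30 bases after an annotated start site (RefSeq, GRCm38.p6), 5′ to 3′ on the gene's strand, and capitals mark the core of the interferon-stimulated response element, searched as GAAANNGAAA on both strands. The Ddx58 window is chr4:40239796-40240075 on the minus strand, with 1 match that begins 3 bases after the start site and reads on the opposite strand. The Irf9 windows, from 2 annotated start sites, are chr14:55603735-55604014 and chr14:55604329-55604608 on the plus strand, with 0 matches.
Ddx58: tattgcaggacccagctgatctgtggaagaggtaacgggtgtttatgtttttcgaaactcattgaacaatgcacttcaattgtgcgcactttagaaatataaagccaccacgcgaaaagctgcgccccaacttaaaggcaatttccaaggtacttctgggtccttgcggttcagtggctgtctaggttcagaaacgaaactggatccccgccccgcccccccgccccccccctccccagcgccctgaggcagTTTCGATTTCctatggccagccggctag
Irf9, first start site: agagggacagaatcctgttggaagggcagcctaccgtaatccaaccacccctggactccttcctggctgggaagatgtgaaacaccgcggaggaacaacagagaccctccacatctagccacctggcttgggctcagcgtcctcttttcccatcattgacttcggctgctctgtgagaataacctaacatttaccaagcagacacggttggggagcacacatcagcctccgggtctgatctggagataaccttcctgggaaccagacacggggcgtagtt
Irf9, second start site: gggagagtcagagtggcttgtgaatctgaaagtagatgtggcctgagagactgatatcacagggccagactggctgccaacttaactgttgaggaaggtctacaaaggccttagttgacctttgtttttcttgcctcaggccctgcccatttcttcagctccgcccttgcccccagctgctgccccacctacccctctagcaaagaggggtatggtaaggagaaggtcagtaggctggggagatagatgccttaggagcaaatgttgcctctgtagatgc

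Of the 23 measured interferon genes, 19 were matched by symbol to a promoter window, and 13 of these held the motif in a full window of 300 bases, against 3.99% of the 27025 genes in the table. The 13 with the motif had a median difference of -0.42 and 9 of them lay below 0. The 6 without it, Irf9 among them, had a median of -0.45, with 5 below 0. The medians of members with and without the motif were alike. A match is a stretch of letters, not a shown binding site.

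Genes of antigen presentation lay on the other side. Of 16 measured, 13 were above 0 (all genes 49.4%) with a median of 0.40, and 1 had an unadjusted p under 0.05 (all genes 3.16%). H2-Eb1, a class II beta chain, read 10.40, 9.91, 10.12 and 8.86 in the knockout and 9.40, 8.98, 8.44 and 8.22 in the wild type. H2-Aa, a class II alpha chain, read 10.39, 10.10, 10.29 and 9.42 against 9.43, 9.14, 9.04 and 9.30. Knockout replicate 4 lay within the wild-type range for H2-Eb1 and below wild-type replicate 1 for H2-Aa, and the other knockout arrays lay above all wild-type arrays. Cd74, the invariant chain that escorts class II molecules, averaged 13.73 ± 0.48 and 13.24 ± 0.22 (SD, n = 4). The differences of these 3 genes were 1.06 ± 0.49, 0.82 ± 0.44 and 0.49 ± 0.26. Leaving out each array in turn gave medians of the list of 0.32 to 0.68, the latter without knockout replicate 4. The median was -0.06 in control vessels at 8 months, 0.01 in smoked vessels at 3 months and -0.14 in smoked septa at 8 months.

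The T and NK cell list held genes of both directions. Of its 16 measured genes, 3 had an unadjusted p under 0.05, all higher in the knockout (all genes 1.62%), and the groups were apart for 1 higher (all genes 1.41%) and 1 lower (all genes 1.37%). Cd4, the co-receptor of helper T cells, read 8.39, 8.21, 8.18 and 7.99 in the knockout and 7.07, 7.28, 6.73 and 7.11 in the wild type. Those groups were apart with little spread within either, by 1.14 ± 0.48, an unadjusted p of 0.0217. Cd3e, a chain of the T cell receptor complex, read 8.77, 8.29, 8.79 and 6.51 against 6.97, 8.18, 5.73 and 3.57, and Ncr1, a receptor of natural killer cells, averaged 3.72 and 2.31. Nkg7, a granule membrane protein, read 7.02, 6.10, 6.48 and 5.87 in the knockout and 8.47, 7.81, 7.58 and 7.59 in the wild type. Those groups were apart in the other direction, by -1.49 ± 0.76, an unadjusted p of 0.0563. Gzma, granzyme A, and Ccl5, a chemokine of T and NK cells, differed by -1.99 ± 1.67 and -1.23 ± 0.84, with overlapping groups. These 3 genes were named after their values were seen. In the same list Klrd1 differed by -0.60 ± 1.34, and the dim Gzmb and Klrb1c by 0.30 ± 0.58 and 0.02 ± 1.10. The 16 genes had a median of -0.00 with 8 above 0 (all genes 49.4%), and medians of -0.40 without knockout replicate 1 to 0.10 without wild-type replicate 4.

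C1qa, a chain of complement C1q that macrophages make, read 6.70, 6.72, 6.67 and 5.88 in the knockout and 4.89, 4.55, 2.34 and 4.68 in the wild type. Those groups were apart by 2.38 ± 1.12. In its list of 16 complement genes it was the 1 with groups apart, higher (all genes 1.41%). Of the 16, 11 lay above 0 with a median of 0.18, which was -0.03 to 0.31 when each array was left out. Without wild-type replicate 3, 8 of the 16 lay below 0. Cd14, the co-receptor for bacterial lipopolysaccharide, read 8.82, 9.19, 7.89 and 7.96 against 7.84, 6.66, 5.99 and 6.62. The groups of Cd14 were apart by a margin between knockout replicate 3 and wild-type replicate 1. Among 14 monocyte and interstitial macrophage genes, Cd14 was the 1 whose groups were apart, higher in the knockout (all genes 1.41%). Adgre1, a surface receptor of macrophages, averaged 6.83 and 5.03, and Spp1, osteopontin, 3.01 and 4.12. Of 14 monocyte and interstitial macrophage genes 12 lay above 0 (all genes 49.4%), with a median of 0.19, and 5 lay below 0 without wild-type replicate 4. Of 16 alveolar macrophage genes 7 lay above 0, with a median of -0.12 that was 0.32 without wild-type replicate 3.

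Other genes of inflammation depended on few arrays. Cxcl5, a chemokine for neutrophils, read 2.41, 6.42, 8.15 and 2.04 in the knockout and 1.06 to 3.01 in the wild type, high on knockout replicates 2 and 3. Ccl11, eotaxin, read 5.76, 2.56, 1.77 and 2.14 against 6.18, 4.96, 2.86 and 6.93. The 29 cytokines and chemokines had a median of 0.16, which ranged from -0.28 without knockout replicate 1 to 0.27 without knockout replicate 2. Of them, 2 had an unadjusted p under 0.05 (all genes 3.16%), Il1rn higher and Ccl11 lower. Lcn2, lipocalin 2 of neutrophils and stressed epithelium, averaged 12.69 and 11.87, and the 13 neutrophil genes had a median of 0.34. That median ranged from -0.14 without wild-type replicate 4, where 10 of the 13 lay below 0, to 0.69 without wild-type replicate 2.

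Of 13 B and plasma cell genes measured, 7 lay above 0 (all genes 49.4%) with a median of 0.16, which ranged from -0.27 without wild-type replicate 4 to 0.49 without wild-type replicate 2. An unadjusted p under 0.05 was found for 2, both higher in the knockout (all genes 1.62%). The groups were apart for 2, both higher (all genes 1.41%): Jchain and Derl3, an endoplasmic reticulum factor of secretory cells. Mzb1, a chaperone of antibody-secreting cells, read 6.72, 4.66, 3.61 and 4.65 in the knockout and 3.97, 1.34, 2.29 and 1.94 in the wild type, overlapping through wild-type replicate 1. Its difference was 2.53 ± 1.18 with an unadjusted p of 0.0393. Tnfrsf17, the plasma cell receptor BCMA, read 3.74, 6.75, 1.30 and 2.00 in the knockout and was dim on every wild-type array. Wild-type replicate 1 was the highest wild-type array for both Jchain and Mzb1. The mean level of the list was 5.16 to 6.55 in the knockout (mean 5.81 ± 0.59 SD, n = 4) and 4.40 to 5.35 in the wild type (mean 4.88 ± 0.52 SD, n = 4), with overlapping groups.

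Lists of endothelium had medians of -0.11 for 12 general markers, -0.27 for 15 arterial and venous genes and 0.00 for 12 capillary genes. For 7 lymphatic genes the median was 0.75, with 4 above 0 and 3 below. That median ran from -0.02 to 1.05 when each array was left out. Of the arterial and venous genes 11 lay below 0 and 26.7% above it (all genes 49.4%), and the median was -0.02 without knockout replicate 2. The groups were apart for 1 of them, lower in the knockout (all genes 1.37%). It was Bmx, a tyrosine kinase of arterial endothelium, named after its values were seen, which read 9.08, 8.91, 9.26 and 9.29 in the knockout and 9.68, 9.81, 9.46 and 9.79 in the wild type. Aplnr, the apelin receptor, averaged 5.04 and 3.35, and Hey1, a Notch target of arteries, 10.92 and 11.45. Pdpn, podoplanin of lymphatic endothelium and type 1 pneumocytes, read 7.46, 6.86, 8.08 and 7.32 in the knockout and 6.27, 6.51, 5.89 and 6.82 in the wild type. Those groups were apart by 1.06 ± 0.62. Pdpn was the 1 such gene among 7 lymphatic and among 12 type 1 pneumocyte genes (all genes 1.41% apart and higher). Treml1, a receptor of platelet granules, read 5.13, 5.53, 5.66 and 6.26 against 3.78, 4.09, 1.80 and 4.01, also apart. It was the 1 such gene among 7 platelet and megakaryocyte genes (all genes 1.41% apart and higher).

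The type 2 pneumocyte, ciliated cell and club and goblet cell lists lay mostly above 0, and the type 1 pneumocyte and basal cell lists did not. Of 13 type 2 pneumocyte genes 11 lay above 0 (all genes 49.4%), with a median of 0.45 that was 0.12 without wild-type replicate 4. Sftpa1 and Sftpd, the surfactant collectins, averaged 10.93 and 11.46 in the knockout and 10.05 and 10.64 in the wild type. Abca3, the lipid pump of lamellar bodies, averaged 8.26 and 7.32. Of 13 club and goblet cell genes 12 lay above 0, with a median of 0.39 and 1 at an unadjusted p under 0.05 (all genes 3.16%). The median was 0.12 without knockout replicate 2 and 0.77 without wild-type replicate 3. The gene of low p was Spdef, a transcription factor of goblet cells, which read 1.88, 4.34, 4.80 and 7.69 in the knockout and 1.77 to 2.80 in the wild type. Muc5b, a secreted airway mucin, averaged 7.72 ± 1.72 and 5.61 ± 2.27 (SD, n = 4). Of 14 ciliated cell genes 11 lay above 0, with a median of 0.42 that was 0.14 without wild-type replicate 1. Foxj1, the master regulator of motile cilia, averaged 8.58 and 7.13. Of 12 type 1 pneumocyte genes 6 lay above 0, with a median of -0.04, and of 6 basal cell genes 3 did, with a median of -0.13. Ager, of type 1 pneumocytes, read 7.79, 7.70, 10.08 and 5.45 in the knockout and 6.06 to 7.38 in the wild type, a spread within the knockout that took in the whole wild-type range.

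Of the remaining lists, proliferation and stress genes gave isolated differences. Zmat3, a target of p53, read 7.32, 7.74, 8.95 and 8.65 in the knockout and 5.85, 7.50, 5.65 and 3.89 in the wild type, overlapping through wild-type replicate 2, with a difference of 2.44 ± 1.13. Of 15 senescence and p53 genes it was the 1 with an unadjusted p under 0.05 by limma, higher (all genes 1.62%). In that list 11 genes lay above 0 (all genes 49.4%), with a median of 0.15. Rrm2, a subunit of ribonucleotide reductase, averaged 5.76 and 3.61, and Top2a, the topoisomerase of dividing cells, 3.30 and 2.13, in a cell cycle list with a median of 0.13 over 23 genes. Ndufs1, a subunit of respiratory complex I, read 9.08, 11.03, 9.30 and 10.27 in the knockout and 8.39, 8.76, 8.38 and 8.03 in the wild type, and Per3, a clock gene, 7.89, 6.79, 7.22 and 7.57 against 5.55, 6.06, 5.70 and 6.76. Ndufs1 and Per3 were each the 1 gene of their lists whose groups were apart, higher in the knockout (all genes 1.41%). Those lists of 20 and 17 genes had medians of 0.16 and 0.02. Hspb1, a small heat shock protein of muscle, averaged 11.67 and 12.18.

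**Figure D5:**
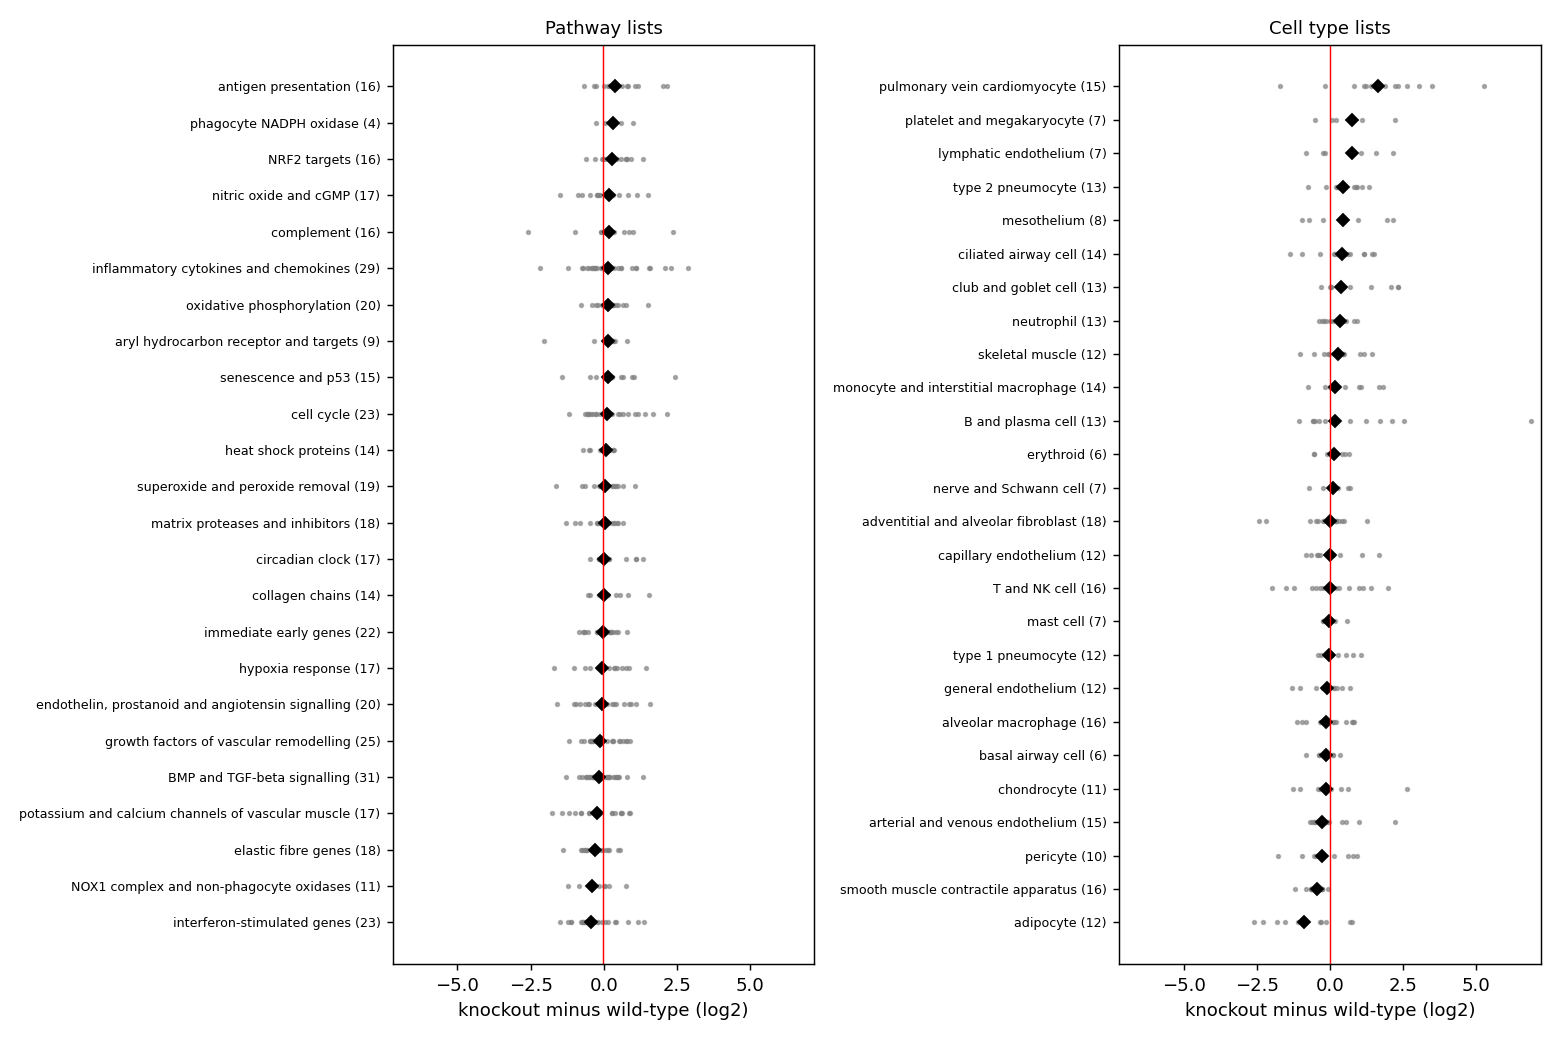
Knockout-minus-wild-type difference in smoked vessels at 8 months (log2) for each measured gene (grey points) and the median (black diamonds) of the pathway lists (left) and the cell type lists (right), with the number of measured genes in brackets and a red line at the median of all genes, -0.01. The pulmonary vein cardiomyocyte list has the highest median, 1.66, and the adipocyte list the lowest, -0.87, and single genes spread across 0 in nearly every list.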

How the data were processed

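Per the labels' protocols, total RNA of microdissected tissue was amplified and Cy5-labelled. The authors deposited values for 62976 features on 76 arrays, read as log2 signal because they run from 0.94 to 15.79; the submitters' processing notes name limma, with no step or background correction. The columns share their quartiles to within 0.0024, so array-wide shifts cannot be seen. Of the features, 31465 had 1 gene symbol, 0 had several and 31511 had none; 29036 were matched by accession, which updated 2933 symbols. Features with an empty cell (671) were left out. The brightest feature stood for each of 20710 genes, 6007 of which had several.

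A model with the means of the 8 vessel groups was fitted to 36 vessel samples with limma 3.58.1 in R 4.3.3 (lmFit, eBayes with trend), the 2 arrays of 1 control mouse averaged, with Benjamini-Hochberg adjustment at 0.05. The test against septa used differences within 35 mice. Replicates are separate mice. The fit was tested on simulated data. The number of arrays, 4 a group, limits precision.

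Genes were named by rule, from the 12919 named genes above the receptor level in a group. The rule took all that passed, filled up to 10 a direction by p where fewer did. It also took up to 3 of lowest p per list, the oxidase genes, and the 3 of lowest p per test of a difference. Derl3, Bmx, Nkg7, Gzma, Ccl5, Klrd1, Gzmb, Klrb1c, Acta2, Myh11, Sftpc and Scgb1a1 were added. Comparison and lists were chosen with earlier results of these data known, so list counts are descriptions. List counts and medians include genes dim in both groups unless stated. Same-numbered replicates deviated together only weakly (4 pairs, correlations of 0.012 to 0.075, mean 0.04). Pairs of other numbers had correlations of -0.077 to 0.054, with a mean of -0.013. The numbers were not used as pairs in the main fit. Alternatives covered normalization, filters, features, array weights, samples, sex and leaving out each array.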

Additional observations from a re-analysis of the deposited data

Results flagged for a closer look

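Within the groups of 4 arrays, 7 of 216 gene-by-group sets examined held an array whose gap to its nearest neighbour exceeded Dixon's 95% critical share of the whole range, where chance alone flags about 1 in 20 sets. For Hba-a1, alpha globin, knockout replicate 3 read 9.48 and the other knockout arrays 13.68 to 13.97. For Nox4, knockout replicate 3 read 6.43 and the others 7.99 to 8.16. C1qa, of complement, was low on knockout replicate 4 at 5.88 (others 6.67 to 6.72) and low on wild-type replicate 3 at 2.34 (others 4.55 to 4.89). Treml1, of platelets, was low on wild-type replicate 3 as well, at 1.80 against 3.78 to 4.09. For Oas2, wild-type replicate 1 read 4.59 and the others 7.24 to 7.63. Kcnj8 read 2.65 on knockout replicate 2 and 1.38 to 1.55 on the others, all in the dim range. Leaving out each of the 8 arrays in turn gave 0 calls by limma, with a lowest adjusted p of 0.219, without wild-type replicate 2.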

How the results depend on the processing

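The count of 0 genes for knockout against wild-type in smoked vessels at 8 months was the same in all 22 settings, with 409 to 1037 genes at an unadjusted p under 0.05. The test against control vessels gave 0 in 26 settings and the test against septa 0 in 13. The test against 3 months gave 0 in 25 settings except 1 fit over 76 arrays with mouse as a block, in which 1 gene, Tbc1d2, passed (adjusted p = 0.0344). The fit with the replicate number as a block, on the 8 arrays alone, gave 0 calls, 955 genes at an unadjusted p under 0.05 and a lowest adjusted p of 0.0723, and it changed no call. The Noxo1 difference stayed below 0, at -1.72 to -0.48 when each array was left out. Of 107 other genes followed, 97 kept their sign throughout. Apart from the oxidase genes, most of them were named for a low p on the same 8 arrays. That choice favours a kept sign, so the count is no evidence. Reversals with the mean of all features were Duox1 at -0.45, Rac1 at 0.01 and Kcna5 at 0.22; with array weights, Duox1 at -0.02 and Ncf4 at -0.04; with a further quantile normalization, Duox2 at -0.01 and Ncf4 at -0.01; with median and MAD scaling, Duox2 at -0.01, Cyba at -0.05 and Ncf4 at -0.01. Among the arrays of female pattern, a choice made after seeing the data, Duox2 was -0.27. When each array was left out, differences that changed sign ranged from -1.06 to 0.05 for Noxa1, -0.13 to 0.33 for Duox1, -0.25 to 0.29 for Duox2, -0.94 to 0.06 for Duoxa1, -0.17 to 0.17 for Cyba, -1.05 to 0.71 for Ncf1, -0.45 to 0.37 for Ncf4 and -0.20 to 1.57 for Hba-a1. The causes were not tested. Of 510 list settings, 29 moved the median difference by at least the SD of the list's level between arrays, averaged over the 2 groups. That limit is wide for lists whose level varied much between arrays. Sex was read from Xist, Kdm5d, Eif2s3y and Uty, because Ddx3y was not measured.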
